A study of Homo sapiens with 30 samples.

Results

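The mRNAs of the small ribosomal subunit proteins were examined in the LARP6 iCLIP data of U-87 MG cells. The genes were taken by name: every protein-coding GENCODE gene whose symbol is RPS, a number and at most an A or X, together with RPSA, FAU and RACK1. This gave 33 of 20046 protein-coding genes. iCLIP crosslinks a protein to the RNA it touches with ultraviolet light, pulls the protein down and sequences the attached fragments, so that clusters of crosslinks ("peaks") mark contact sites. U-87 MG is an established glioblastoma line, and its lines here carried a doxycycline-inducible, codon-optimised LARP6 with an N-terminal myc tag, which the anti-myc pull-down recovered. The variants were full-length LARP6 (FL), ΔNTR (lacking the disordered N-terminal region), ΔCTR (lacking the C-terminal region), ΔLa-module (lacking the La motif and the RNA recognition motif beside it) and ΔNTD (lacking the N-terminal region and the La-module together). The transgenes were delivered by lentivirus under puromycin selection, and parental cells without one were the negative control. All cells received 60 ng/mL doxycycline for 24 h. Endogenous LARP6 was present in every line, at 51.7 to 75 CPM (gene counts scaled to a common library total) in the input RNA.

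Each variant had 3 iCLIP replicates, which the authors merged into 1 peak list before subtracting the peaks called in parental cells. The lists therefore carry no spread between replicates, and the intervals given for them cover counting error only. The score of a peak is the number of crosslinks summed over the replicates in which a peak was called there. A call needed at least 3 crosslinks in a replicate, and a replicate without a call added nothing. A peak with a score of 3 thus rests on a call in 1 of the 3 replicates. There were 14334 peaks for FL, 17180 for ΔNTR and 15870 for ΔCTR, but 636 for ΔLa-module and 291 for ΔNTD. Total RNA of each line was sequenced once with paired reads of 150 nt, giving 25027075 to 28692476 counts assigned to genes. In these libraries the mesenchymal and glioma markers VIM, CD44 and NES were well detected, at no less than 7024, 2085 and 52.1 CPM. The glial markers GFAP, SOX2 and S100B stayed at or below 0.24 CPM and PTPRC, a leukocyte marker, at or below 0.074 CPM. EPCAM and PECAM1, of epithelium and endothelium, reached at most 2.48 and 2.42 CPM.

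The small, or 40S, subunit of the ribosome binds the mRNA, scans for the start codon and holds the decoding site, whereas the large subunit joins amino acids. The mRNAs of its proteins are among the most abundant of a growing cell. They typically begin with a C followed by an unbroken run of pyrimidines, the 5′ terminal oligopyrimidine (5′TOP) motif, through which their translation responds to nutrient signalling. LARP6 belongs to the La-related proteins, whose La-module binds RNA.

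The annotated start was a C followed by at least 4 further pyrimidines (C or T, on the mRNA strand only) in 26 of 33 small subunit mRNAs (78.8%), against 895 of 19061 protein-coding genes with a MANE Select transcript (4.70%). The run was 14 bases long in RPS24, 12 in RPS21 and 11 in RPS3 and RPS19. RPS4X, RPS26 and RPS28 were among those that began with a purine in the annotation, and RPS7 and RPS15 with a C and a shorter run. When the longest pyrimidine run that began within 10 nt of the start was taken instead, 32 of 33 had one of at least 5 bases, against 28.4% of all starts. The first 30 bases are shown for 7 mRNAs with a peak in this part of the message, read from hg38, 5′ to 3′, with the run that starts at the first base in capitals. The first 4 had such a peak in the FL, ΔNTR and ΔCTR lists, RPS21 in FL and ΔNTR, RPS6 in ΔNTR alone and RPSA in ΔNTR and ΔCTR.
RACK1 (chr5:181243877-181243906, minus strand): CTCTCTTTCactgcaaggcggcggcaggag
RPS16 (chr19:39435920-39435949, minus strand): CCTTTTCCggttgcggcgccgcgcggtgag
RPS24 (chr10:78033863-78033892, plus strand): CTCTTTTCCTCCTTggctgtctgaagatag
RPS25 (chr11:119018314-119018343, minus strand): CTTTTTgtccgacatcttgacgaggctgcg
RPS21 (chr20:62387103-62387132, plus strand): CCTTTCTCTCTCgcgcgcggtgtggtggca
RPS6 (chr9:19380207-19380236, minus strand): CTCTTTTCCgtggcgcctcggaggcgttca
RPSA (chr3:39406720-39406749, plus strand): CTTTTCCgtgctacctgcagaggggtccat

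A second set shows some of the sites inside coding sequences (CDS) that were called in FL, ΔNTR and ΔCTR, in RACK1, RPS19 and RPSA. They were not taken by score alone: the RPS20 site, with scores of 63, 109 and 107, is not shown. The second RPS19 site scored 4 in FL. Capitals mark the bases that lay inside the peak of all 3 lists, and positions count from 1 at the annotated mRNA start. RACK1 encodes a scaffold protein on the head of the 40S subunit, RPS19 a head protein mutated in Diamond-Blackfan anaemia, and RPSA a protein of the body also known as the laminin receptor.
RACK1, bases 388 to 417 (chr5:181241610-181241639, minus strand): GGGCACCACCACGAGGCGATTTGTGGGCca
RPS19, bases 168 to 197 (chr19:41861173-41861202, plus strand): CTTGCTCCCTACGATGAGAACTGGTTCTAC
RPS19, bases 210 to 239 (chr19:41869033-41869062, plus strand): tCCACAGCGCGGCACCTGTACCTCCGGGGt
RPSA, bases 231 to 260 (chr3:39408625-39408654, plus strand): CAAGAGGACCTGGGAGAAGCTTCTGCTGGC
RPSA, bases 751 to 780 (chr3:39411941-39411970, plus strand): GAGGAATTTCAGGGTGAATGGACTGCTCCC

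Small subunit mRNAs carried 55 FL peaks (95% Poisson interval 41 to 72), 67 ΔNTR peaks (52 to 85) and 55 ΔCTR peaks (41 to 72). The ΔLa-module list held 5 (2 to 12) and the ΔNTD list none. The summed scores were 510, 587, 567, 19 and 0. In the FL list this was 0.384% of peaks and 0.496% of the score, while the same genes took 1.14% of the FL input counts. The pattern was alike in ΔNTR (0.631% of the score, 1.13% of counts) and ΔCTR (0.477% and 1.14%). Parental peaks were subtracted from the lists only, and not all sequence of these genes can be placed uniquely. The part of either in these shares was not tested. The score per 1000 input counts was 1.61, 2.07 and 1.85 over the small subunit genes (FL, ΔNTR, ΔCTR). Over the 1029 protein-coding genes with at least 5000 parental counts it was 4.12, 4.48 and 5.11, and over 50 large subunit protein genes 1.06, 1.29 and 1.1. Without RACK1 and RPS20 the small subunit values were 0.85, 1.25 and 1.01.

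At least 1 peak was found in 21 of 33 small subunit genes in FL (63.6%, Wilson 95% interval 46.6 to 77.8), and also in 21 in ΔNTR and 21 in ΔCTR. The background of protein-coding genes with at least 10 counts in each library was 37.3%, 38.0% and 39.7% in the same order. Among genes with at least 5000 parental counts, a background chosen after these values were seen, it was 90.5%, 91.4% and 92.1%, against 18, 18 and 19 of the 26 small subunit genes at that level. The small subunit mRNAs are short, with a median of 732 nt against 4181 nt in these well-counted genes. In all, 17 had a peak in each of the 3 lists and 26 in at least 1. RPS14, a platform protein, had peaks in FL alone (3 peaks, summed score 9) and RPS15 in ΔNTR alone (score 5). RPS7, RPS13 and RPS27 were among the genes with a peak in ΔCTR alone, 1 each with scores of 10, 3 and 3. The 7 genes with no peak in these lists included RPS3A, RPS10, RPS15A, RPS18, RPS26 and RPS28.

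The score was concentrated in RACK1 and RPS20, which together gave more than the other members combined in FL. RACK1 summed to 167 in FL (8 peaks), 117 in ΔNTR (9 peaks) and 161 in ΔCTR (6 peaks). RPS20, a head protein, summed to 102 (4 peaks), 152 (3 peaks) and 128 (3 peaks). RACK1 was thus highest in FL and RPS20 highest in ΔNTR. RPS19 followed at 32, 32 and 51. RPS6, the protein phosphorylated by S6 kinase, had 22, 32 and 16. RPSA reached 22, 43 and 40. The 10 highest in FL also included RPS16 (16, 19 and 12), RPS3 (15, 19 and 5), RPS21 (14, 16 and 23) and RPS29 (14, 13 and 17). All other members lay at or below 12 in FL.

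**Figure D1:**
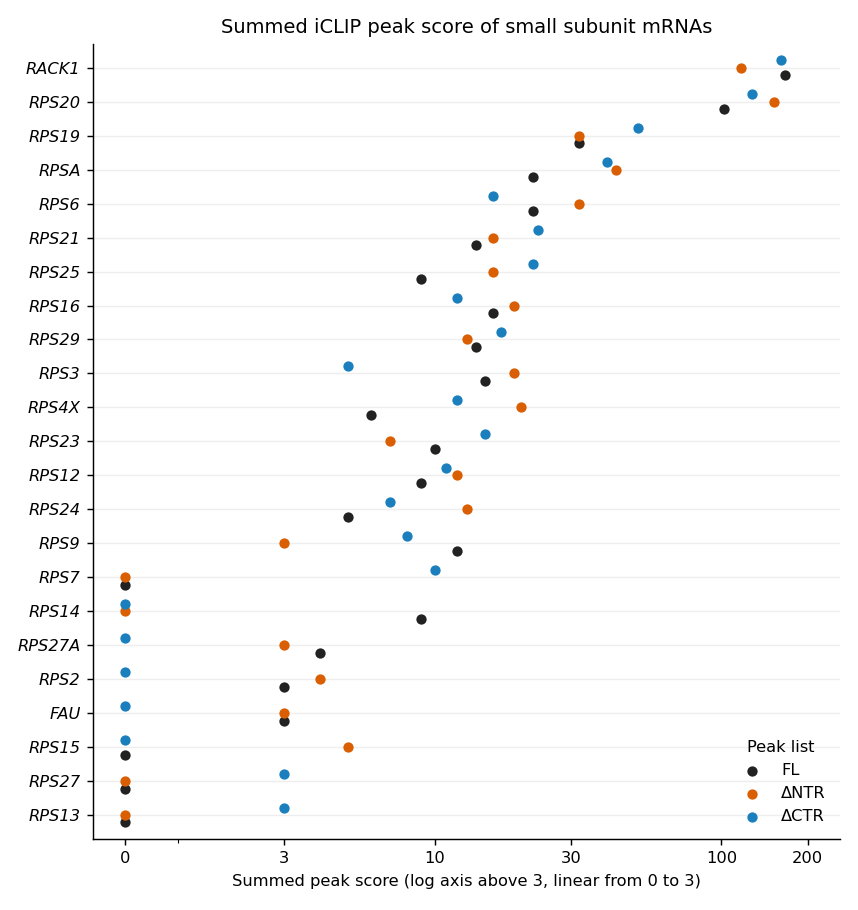
Summed peak score (x axis, crosslinks, log scale above 3 and linear from 0 to 3) of 23 of the 26 small subunit genes with a peak in the FL (black), ΔNTR (orange) or ΔCTR (blue) list, 1 point per pooled list. RACK1 and RPS20 lie above 100 in all 3 lists, and every other gene drawn at or below 51.

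Per input count the order changed. RPS29 had 12.2 units of FL score per 1000 FL input counts, RACK1 9.87, RPS20 6.06 and RPS19 3.02, while RPSA had 0.926. RPS29 was among the more weakly counted genes, with 1166 parental counts against 16915 for RACK1.

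Most small subunit peaks lay in coding sequence. Of 55 FL peaks, 39 were centred in the CDS (70.9%, 57.9 to 81.2), 7 within 50 nt of the mRNA start (12.7%, 6.30 to 24.0), 4 elsewhere in a 5′UTR, 3 in a 3′UTR (5.45%, 1.87 to 14.9) and 2 in other annotated exons of the gene. ΔNTR had 46 of 67 in the CDS (68.7%), 11 near the start (16.4%) and 6 in a 3′UTR (8.96%). ΔCTR had 34 of 55 (61.8%), 11 (20.0%) and 5 (9.09%). Over the peaks of all protein-coding genes the order was different: 37.5% in the CDS, 1.56% near the start and 49.3% in a 3′UTR in FL. Large subunit genes had the same order as small subunit ones, with 60%, 20% and 9.33% in FL. The small subunit shares rest on counting CDS before 3′UTR where transcripts of a gene disagree. With the opposite order, 40% of the small subunit FL peaks were in the CDS and 36.4% in a 3′UTR. Placed on the MANE Select transcript alone, 39 FL peaks were again in the CDS and 3 in the 3′UTR.

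Per kilobase of MANE Select transcript, small subunit genes had 4.24 FL peaks in the first 50 nt, 2.39 in the rest of the CDS and 0.22 in the 3′UTR. Well-counted protein-coding genes had 2.18, 1.08 and 1.32, and large subunit genes 6, 1.74 and 0.128. The 3′UTR was thus the region of lowest density in small and large subunit mRNAs, and the start of the message that of the highest. Leaving out RACK1 and RPS20 gave 3.23, 2.06 and 0.222. The annotated 3′UTRs of RPS3, RPS14, RPS15A, RPS19, RPS23 and RPS28 exceed 1000 nt. All 3 FL peaks in a 3′UTR came from the longest of these, in RPS23, a protein of the decoding centre, with scores of 3, 3 and 4. The other 27 genes, with 3.525 kb of 3′UTR in all, had 0 FL, 1 ΔNTR and 2 ΔCTR peaks there.

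Peaks within 50 nt of the mRNA start were present in 7 small subunit genes in FL (21.2%, 10.7 to 37.8), against a background of 1.70% of genes with at least 10 counts and 10.3% of those with at least 5000. In ΔNTR they were present in 10 (30.3%, 17.4 to 47.3), against 1.87% and 12.0%, and in ΔCTR in 10 (30.3%), against 1.32% and 8.94%. Large subunit genes had such a peak in 13, 16 and 11 of 50 (26%, 32% and 22%). The ΔLa-module and ΔNTD lists had none in either subunit, where 0.0495% and 0.0165% of genes with at least 10 counts and 0.583% and 0.194% of those with at least 5000 had one. By position in the ribosome, 5 of 15 proteins of the head and 2 of 18 of the body and platform had one in FL. The intervals of these shares, 15.2 to 58.3% and 3.10 to 32.8%, overlapped. All of these counts use the MANE Select start. With the start of any protein-coding transcript instead, 10 small subunit genes had a start peak in FL, 12 in ΔNTR and 11 in ΔCTR.

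**Figure D2:**
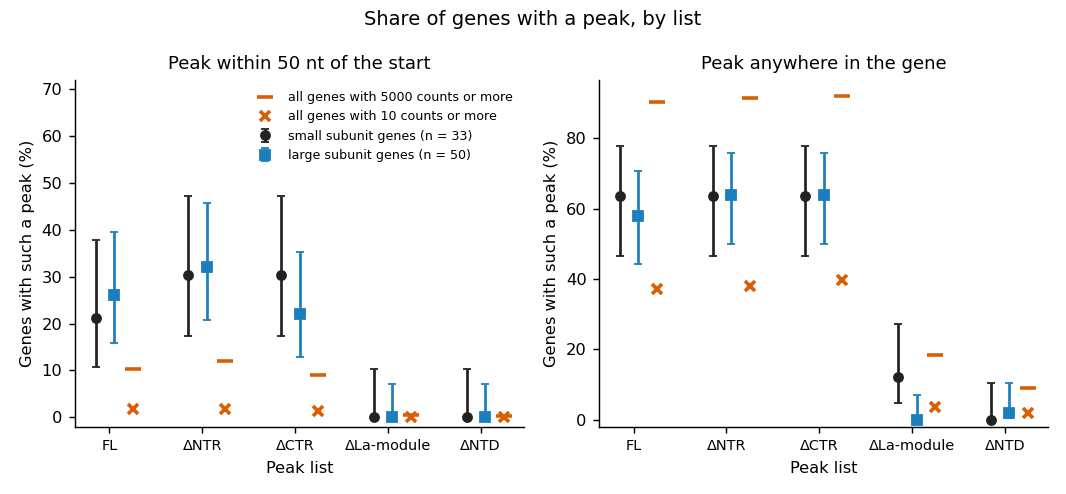
Share of genes (y axis, %) with a peak within 50 nt of the mRNA start (left) or anywhere in the gene (right) in each of the 5 peak lists (x axis). Points with Wilson 95% intervals are the 33 small subunit (black circles) and 50 large subunit genes (blue squares), and orange marks are protein-coding genes with at least 5000 parental counts (bars) or at least 10 counts in each library (crosses). Small subunit genes lie above both backgrounds on the left and between them on the right in FL, ΔNTR and ΔCTR.

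RACK1, RPS16, RPS20, RPS24 and RPS25 had a peak near the start in each of the FL, ΔNTR and ΔCTR lists. The highest score in FL and ΔNTR was in RPS20, centred 19 or 20 nt from the start and scoring 26 in FL, 36 in ΔNTR and 18 in ΔCTR. In RPS16, whose C-terminal tail reaches the peptidyl site, the peak was centred 9 nt from the start in FL and 4 nt in both deletions, and scored 13, 4 and 3. RPS25, used by several viral entry sites, scored 9 in FL, 4 and 9 at a pair of peaks in ΔNTR, and 19 and 3 at a pair in ΔCTR, where the 19 was the highest of that list. RPS24 scored 5, 7 and 4 and RACK1 3, 7 and 7. The RPS24 peaks were centred 2, 30 and 16 nt from the start, and those of FL and ΔNTR did not overlap. The RACK1 peak was centred at base 37 in FL and did not overlap those of ΔNTR and ΔCTR, at bases 9 and 6.

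RPS21 had a start peak in FL (score 4) and ΔNTR (3) but none in ΔCTR. RPSA had one in ΔNTR (3) and ΔCTR (5), centred at base 3 in both. RPS2 (score 4) and RPS6 (score 15, centred at base 5) had one in ΔNTR alone. RPS4X (3), RPS19 (5), RPS27 (3) and RPS29 (9) had one in ΔCTR alone, although that of RPS29 overlapped an FL peak of score 6 whose centre was not on the MANE Select transcript. RPS6 also had a 5′UTR peak whose centre was not on that transcript in FL (7) and ΔCTR (3). By the MANE Select start, no gene had a start peak in FL alone. RPS4X was the only one of these 14 genes without the pyrimidine start in the annotation: 13 of 14 had it, and 13 of the 19 genes without a start peak. Bases inside the FL start peaks were 61.2% pyrimidine, against 55.9% over the first 50 nt of all 33 mRNAs. The share was 59.7% in ΔNTR and 69.0% in ΔCTR. Some of these peaks ran upstream of the annotated start, and such bases enter the peak shares but not the 55.9%.

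The highest-scoring peak of these mRNAs in FL and ΔCTR lay in the CDS of RACK1, centred on base 400 of the message, with scores of 134 in FL, 81 in ΔNTR and 119 in ΔCTR. It spanned 32, 32 and 31 nt, so the edges were nearly the same in all 3 lists. The ΔNTR score was 0.604 times the FL score (exact binomial 95% interval 0.453 to 0.802) and the ΔCTR score 0.888 times (0.688 to 1.15). Such ratios are not scaled to the list totals, which were 102788 in FL, 92958 in ΔNTR and 118751 in ΔCTR. With scores divided by these totals the RACK1 ratios were 0.668 and 0.769. The next peak, and the highest in ΔNTR, was in the CDS of RPS20, centred on base 200, with scores of 63, 109 and 107. There ΔNTR was 1.73 times FL (1.26 to 2.40) and ΔCTR 1.70 times (1.23 to 2.36). The intervals of the ΔNTR ratio in RACK1 and RPS20 did not overlap. Among FL peaks in coding sequence RPS19 held the third, centred on base 182, with 24, 12 and 25. RPSA had 1 site centred on base 241 in FL (10, 15 and 17) and another on base 766 (12, 22 and 15).

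**Figure D3:**
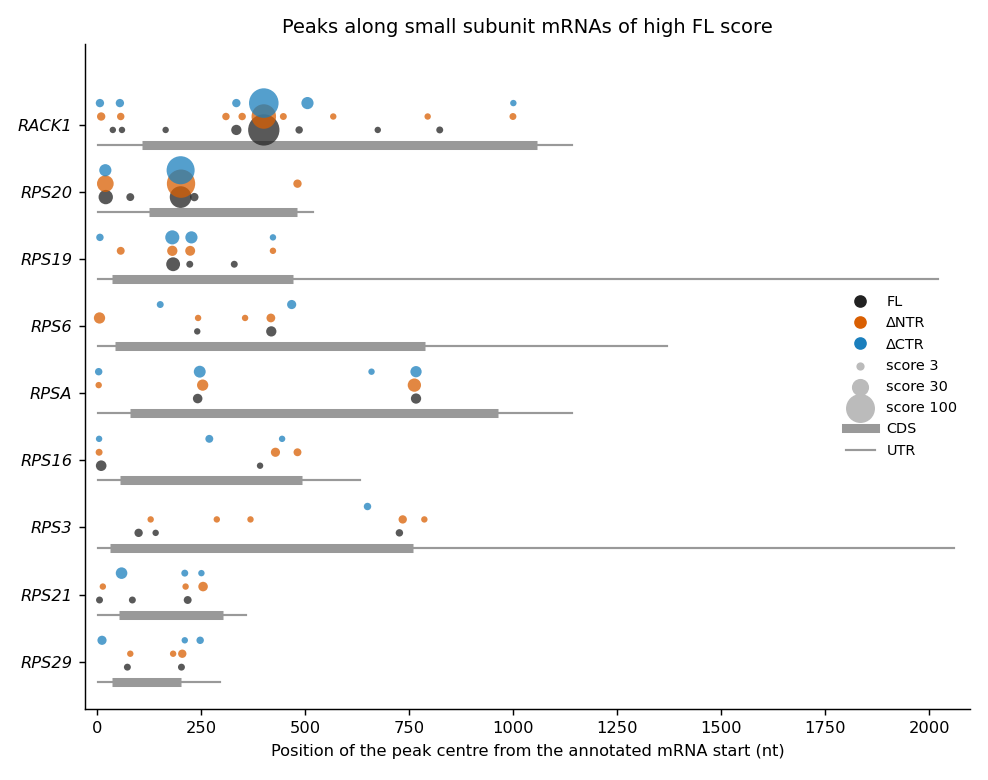
Peak centres along the mRNAs of 9 of the 10 small subunit genes with the highest FL score (x axis, nt from the annotated start; thick line, CDS; thin line, UTR). Each point is a peak of the FL (black), ΔNTR (orange) or ΔCTR (blue) list, with an area that rises with its score. The RACK1 site at base 400 and the RPS20 site at base 200 recur in all 3 lists, and few points fall in 3′UTRs.

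These CDS sites often lay against a splice junction, a feature looked at after the peaks were seen. The RACK1 peak began 3 nt before the first base of its exon. The RPS20 peak ended 5 nt before the end of its exon, and a further FL peak (score 7) covered the start of the next exon. In RPS19 the peak on base 182 ended 2 nt from an exon end and that on base 222 (scores 4, 11 and 18) covered the start of the next in FL and ΔNTR and began 3 nt inside it in ΔCTR. In FL, 13 of 39 CDS peaks had an edge within 5 nt of a junction or past it (33.3%, 20.6 to 49.0), against 22.2% in well-counted genes. Exons of small subunit genes are short, and for exons under 200 nt the shares were 34.4% and 30.5%. By score, 68.7% of the FL score in the CDS came from such peaks, and 43.3% without RACK1 and RPS20. The figures for well-counted genes were 24.2% of the score for all exons and 33.7% for those under 200 nt.

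Of the 55 FL peaks, 30 were overlapped by at least 1 nt of a ΔNTR peak (54.5%, 41.5 to 67.0) and 23 by a ΔCTR peak (41.8%, 29.7 to 55.0). Over all FL peaks in protein-coding genes these shares were 35.2% and 37.7%. Peaks with a score of 3 made up 36.4% of the small subunit FL peaks but 53.8% of all FL peaks in protein-coding genes. These overlap shares are thus not matched for score. With 50% of both peaks required, the ΔNTR share in small subunit genes was 32.7%. Neither this setting nor the split by score that follows was worked out over all genes. Overlap was more frequent at higher scores: 7 and 3 of the 20 FL peaks with a score of 3 were overlapped by ΔNTR and ΔCTR, 13 and 11 of the 25 with scores of 4 to 9, and 10 and 9 of the 10 with a score of 10 or more. In the other direction, 36 of 67 ΔNTR peaks (53.7%) and 32 of 55 ΔCTR peaks (58.2%) had no FL overlap. The shares that FL did overlap were 46.3% and 41.8%, against 29.8% and 34.1% of all ΔNTR and ΔCTR peaks in protein-coding genes. Of the peaks without overlap, 9 and 6 lay within 100 nt of an FL peak in the genome, and 1 and 4 were in genes without any FL peak. These last counts were not worked out over all genes, so what is typical is not known.

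A site was called shared when 1 peak of each of FL, ΔNTR and ΔCTR overlapped there and no other did. There were 12 in small subunit genes, and 2238 in all. Their summed scores were 307 (FL), 312 (ΔNTR) and 341 (ΔCTR). The ΔNTR to FL ratio was 1.02 (0.865 to 1.19), and over all 2238 sites 0.633 (0.623 to 0.643). Its interval did not reach that value, but the ratio rested on few sites. It was 0.766 (0.622 to 0.941) without RPS20, 1.34 (1.09 to 1.64) without RACK1 and 1.02 (0.749 to 1.40) without either. ΔNTR scored higher than FL at 7 of the 12 sites, lower at 4 and the same at 1, against 653 higher, 1332 lower and 253 the same over all sites. The ΔCTR to FL ratio was 1.11 (0.949 to 1.30), and 1.12 over all sites. With scores divided by the list totals, the ΔNTR ratio was 1.12 in small subunit genes and 0.7 over all sites. The ΔCTR ratio was then 0.961 and 0.971. The RPS16 start site was lower in both deletions, at 0.308 (0.0731 to 0.996) and 0.231 (0.0422 to 0.840) times FL. The ΔNTR peak was wider than the FL peak at 5 of the 12 sites and narrower at 6, and the ΔCTR peak gave the same counts. Widths were not compared over all 2238 sites.

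**Figure D4:**
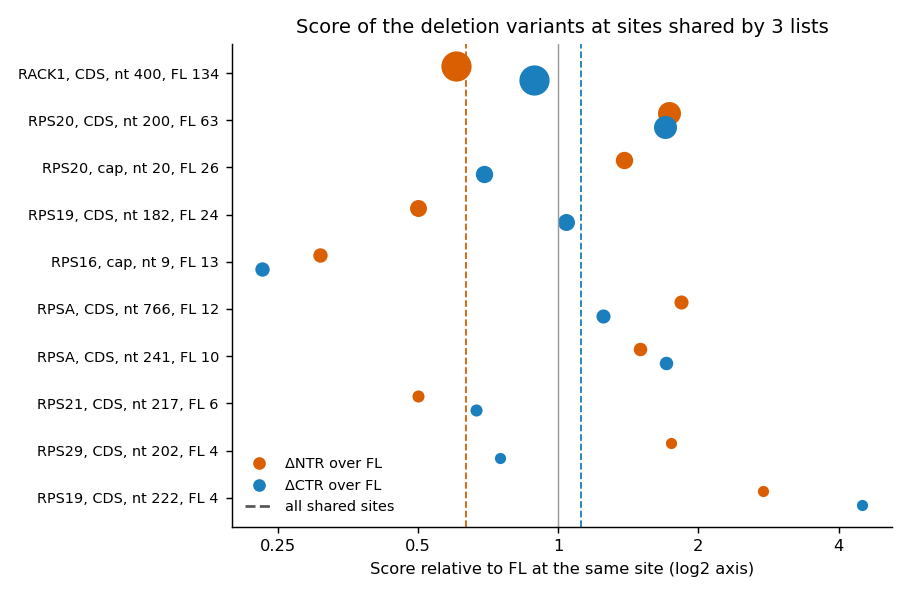
Score of ΔNTR (orange) and ΔCTR (blue) relative to FL (x axis, log2 scale) at 10 of the 12 sites shared by the 3 lists, labelled with the gene, region, mRNA position and FL score and ordered by FL score. Larger points have higher FL scores, and dashed lines give the ratios over all 2238 shared sites, 0.633 and 1.12. RPS20 lies to the right of its dashed line for ΔNTR and RACK1 close to it.

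The ΔLa-module list held 5 small subunit peaks of 636, in RACK1 (scores 3 and 6), RPS12 (4), RPS16 (3) and RPS24 (3). This was 4 of 33 genes (12.1%, 4.82 to 27.3), against 3.57% of genes with at least 10 counts and 18.5% of those with at least 5000. None lay near an mRNA start, and the RACK1 and RPS20 sites at bases 400 and 200 were absent. Of the 5 peaks, 2 overlapped an FL peak, both in RACK1, and this overlap was not worked out over all genes. In ΔNTD, 0 of 291 peaks were in small subunit genes, which allows a share of up to 1.03%. As a share of genes this was 0 of 33, with an upper limit of 10.4%, against 1.91% of genes with at least 10 counts and 8.94% of those with at least 5000.

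Many small subunit genes have processed pseudogenes, copies of the mRNA elsewhere in the genome, so part of their sequence cannot be placed uniquely. Of all 31-base stretches of the 33 mRNAs, 55.7% occurred nowhere else in hg38. This share includes stretches across a splice junction that the genome does not hold at all. The share ran from 0.715% in RPS3A, which has 53 pseudogenes named after it, 4.66% in RPS27, 5.02% in RPS10, 10.4% in RPS2 and RPS7, 18.3% in RPSA and 19.7% in RPS15 to 95.9% in RACK1. Among the 7 genes under 20%, 2 had an FL peak, RPS2 and RPSA. Among the 13 over 60%, 11 had one, and RPS28 was one of the exceptions. Spearman's rho across the 33 genes between the unique share and the number of FL peaks was 0.617, against 0.426 for parental counts and 0.229 for mRNA length. The genes share their libraries and peak calls, so these are descriptions. The stretch around the peak centre was unique for 38 of 51 FL peaks placed on an mRNA (74.5%, 61.1 to 84.5). Only 1 peak of each of the 3 large lists, with a score of 3, was centred in the 501 pseudogenes named after these genes. The part of unplaceable reads in the missing peaks was not tested.

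**Figure D5:**
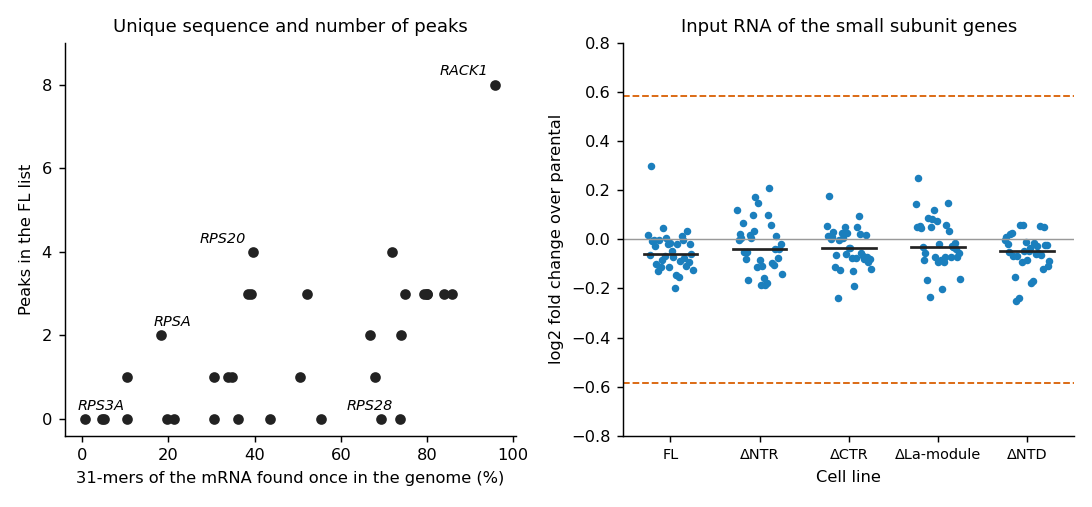
Left, number of FL peaks (y axis) against the share of 31-base stretches of the mRNA that occur nowhere else in the genome (x axis, %), 1 point per small subunit gene. The share includes stretches across a splice junction that the genome does not hold at all. RACK1 is at 95.9% with 8 peaks and RPS3A at 0.715% with none. Right, log2 fold change of each gene in the input RNA of each line over parental cells (y axis), with the median as a black line and 1.5-fold as dashed lines. All points lie inside the dashed lines.

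In the input libraries, small subunit genes took 1.13% to 1.18% of gene counts. Per kilobase of mRNA in parental cells the highest levels were 1170 CPM for RPS20, 922 for RPS3A, 890.2 for RPS12, a head protein, and 835.6 for RPS24. Among the 4 lowest were RPS10 at 2.53, RPS15A at 11.8 and RPS28 at 116.4. RPS10 shared 84.0% of its mRNA with exons of the read-through gene RPS10-NUDT3 on the same strand. Gene counting leaves reads in such exons unassigned, and its part in this low level was not tested. RPS3A and RPS18 had no peak despite 21527 and 7050 parental counts. Levels between genes also depend on how much of each is uniquely placed.

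Levels differed little between lines. RACK1 was at 629.6 CPM in parental cells and at 601.4 (FL), 627.6 (ΔNTR), 636.4 (ΔCTR), 650.7 (ΔLa-module) and 634.3 CPM (ΔNTD) in the transgenic lines. RPS20 was measured at 607.4, 598.8, 561.1, 583, 578 and 587.1 CPM in the same order. RPS20 had its highest iCLIP score and its lowest level in ΔNTR, and the part of RNA level in the scores was not tested. With 1 library per line there is no replicate check of a line. No small subunit gene reached 1.5-fold in any line, on the scale of log2(CPM + 1), against 1.01%, 4.62%, 1.37%, 2.78% and 2.67% of 15651 genes, given in that order of lines. The median log2 fold change over parental cells was likewise -0.06, -0.04, -0.04, -0.03 and -0.05. The number of the 33 genes below parental cells was 27, 19, 19, 20 and 26 in that order. Of all 15651 genes, 7900, 7827, 7912, 7915 and 7930 were below parental cells in the same order of lines. Of 48 large subunit genes it was 38, 32, 32, 31 and 31. The comparisons share the parental library, whose small subunit share was the highest of the 6.

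The highest values were as follows. RPS10 was at 0.30 in FL, on 40 and 58 counts, which leaves a ratio between 0.910 and 2.13, and was also highest in ΔCTR (0.18) and ΔLa-module (0.25). It was followed by RPS18 (0.04) and RPS6 (0.03) in FL, RPS29 (0.09) and FAU (0.05) in ΔCTR and RPS29 (0.15) and FAU (0.14) in ΔLa-module, where FAU encodes a ubiquitin-like fusion. In ΔNTR they were RPS29 (0.21), RPS2 (0.17) and RPS21 (0.15), and in ΔNTD RPS2 (0.06), RPS18 (0.06) and RPS3A (0.05). The lowest values were -0.20 for RPS26, at the mRNA exit, -0.15 for RPS28 and -0.15 for RPS27 in FL. In ΔNTR they were -0.19 for RPS24, -0.18 for RPS27 and -0.18 for RPS27A, which is made as a ubiquitin fusion. In ΔCTR they were -0.24 for RPS15A, -0.19 for RPS27 and -0.13 for RPS26. The 3 lowest included RPS26 at -0.20 and RPS15A at -0.16 in ΔLa-module, and RPS15A at -0.25 and RPS26 at -0.18 in ΔNTD. RPS26 was below parental cells in all 5 lines, at 190.1 to 199.7 CPM against 218.6. In bulk RNA, fewer cells with a transcript and less of it per cell cannot be told apart.

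The lines lacking the La-module (ΔLa-module and ΔNTD) were compared with those carrying it (FL, ΔNTR and ΔCTR), the lines serving as replicates of a class. EdgeR's quasi-likelihood test with Benjamini-Hochberg adjustment called 0 of 18017 genes (0%), 829 of which had an unadjusted p under 0.05, and DESeq2 called 6. None of the 33 small subunit genes was called or had an unadjusted p under 0.05. Their median log2 difference, lacking minus carrying, was 0.01, against 0.00 over all genes, and the smallest adjusted p by edgeR was 0.971. RACK1 differed by 0.05 (SE 0.06) and RPS20 by 0.01 (SE 0.06). Lines differ in more than the La-module, and the spread between variants enters this test.

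Factors that assemble the 40S subunit, such as the kinases RIOK1 to RIOK3 and the endonuclease NOB1, were set beside its proteins. Of 16 such genes, 7 had an FL peak, 6 a ΔNTR peak and 6 a ΔCTR peak (43.8%, 37.5% and 37.5%), against 37.3%, 38.0% and 39.7% of genes with at least 10 counts. Their 14 FL peaks included 7 in the CDS, 6 in a 3′UTR and 0 near the mRNA start, whereas 1 of 12 ΔNTR peaks was near a start. The highest FL score was 36 in RIOK3. In the input, 1 of the 16 passed 1.5-fold in ΔNTR and 1 in ΔNTD (6.25% each, against 4.62% and 2.67% of all genes), and none in the other lines.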

How the data were processed

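Peak lists (GRCh38.p13) were deposited by the authors, who trimmed reads (Trim Galore), removed rRNA and tRNA reads (Bowtie2), mapped the rest with STAR, collapsed duplicates by molecular identifier (UMI-tools), called peaks per replicate with Clippy at a minimum of 3 crosslinks, merged replicates and subtracted parental peaks (bedtools 2.30.0). The deposited score is the crosslink count summed over the peaks called in single replicates. Input counts per gene were deposited by the authors from STAR 2.7.10b. The reverse-strand column was used, with the unstranded one as an alternative, and 62625 of 62750 identifiers matched GENCODE v44, used here in place of the study's V42. The 6 single-end input libraries were not used.

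Peaks were assigned by their centre, on the same strand, to the first 50 nt of the MANE Select mRNA, then CDS, 5′UTR, 3′UTR and intron. Intervals are at 95% and, like the limit for a count of 0 (3 counts), cover counting error only. Levels are CPM with TMM factors and a pseudocount of 1. Genes were tested with edgeR 4.0.16 in R 4.3.3 (DESeq2 1.42.0 as an alternative) after a test on simulated data. Its p-values measure the spread between the lines of a class, each sequenced once.

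Genes named were all with a peak near the start, the 10 highest FL scores, the 3 highest FL peaks per region, those with no peak, the 4 highest and 4 lowest levels and the 3 largest changes in each direction per line, except for some items that are not reported here and are left out of the plots that name genes. Splice-junction distance, the 5000-count background and fits without RACK1 and RPS20 were added after seeing the data. The members and gene lists were chosen with earlier results of these data known.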

Additional observations from a re-analysis of the deposited data

How the results depend on the processing

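Of 123 alternative values over 45 results, 100 stayed and 23 moved. Staying meant lying within the interval or within 1.5 times the reported count. For median fold changes it meant lying within the standard deviation of the small subunit fold changes. The list-score and junction shares without RACK1 and RPS20 were listed as moved without applying a rule. Keeping only scores above 3 left 35 FL, 43 ΔNTR and 31 ΔCTR peaks, and put 3.23% of the ΔCTR peaks in a 3′UTR. Counting 3′UTR before CDS gave 40%, 37.3% and 38.2% in the CDS and 36.4%, 40.3% and 32.7% in a 3′UTR in FL, ΔNTR and ΔCTR. Requiring 50% of both peaks lowered the ΔNTR overlap to 32.7%. Without RACK1 and RPS20, alternatives chosen after seeing the data, the share of the list score was 0.234%, 0.342% and 0.234% and the junction share of the CDS score 43.3%, 34.6% and 52.6%. The ΔNTR to FL ratio was 0.766 outside RPS20 and 1.34 outside RACK1. With 25-mers, 50.2% of the sequence was unique. In the La-module comparison no setting called a small subunit gene. Over all genes, 36 were called without a count filter and 6 by DESeq2, and leaving out 1 line gave between 0 and 283, the highest without ΔNTR. The causes were not tested. Pooling prevents leaving out an iCLIP replicate, and a peak of score 3 rests on 3 crosslinks of 1 replicate. No paired analysis was possible because peak lists are pooled and the input has 1 library per line.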
